A study of Mus musculus with 3 samples.

Results

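Binding of the transcription factors Tbr2 and Neurog2 was described at 6 gene loci of the Reelin pathway and of neuronal migration: Reln, Lrp8, Dab1, Rnd2, Cxcr4 and Unc5d. The members were the peaks of 2 chromatin immunoprecipitation sequencing (ChIP-seq) lists whose midpoint lay in a window set around each gene in the mouse genome build mm9. The 6 windows span 3650 kb and held 47 of the 14539 Tbr2 peaks and 11 of the 2640 Neurog2 peaks. The rule that assigns peaks to loci uses position only, but the loci were chosen with earlier results of these data known. The material was cerebral cortex of C57BL/6 embryos at E14.5, with 1 library from an antibody against Tbr2 (the T-box factor also called Eomes), 1 from an antibody against the basic helix-loop-helix factor Neurog2, and 1 of input chromatin. No peaks of the input were used here. The number of embryos behind each library is not stated. Peak lists hold no expression values, so the tissue label could not be checked against marker genes, and peaks from different cell types of the cortex cannot be told apart. With 1 library per factor no value has a replicate error and no test between conditions was possible. Every comparison below describes these lists.

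Reelin, the product of Reln, is a large secreted glycoprotein that Cajal-Retzius cells release near the surface of the developing cortex. It binds the lipoprotein receptors Lrp8 (also called ApoER2) and Vldlr on migrating neurons, which leads Src-family kinases to phosphorylate the intracellular adaptor Dab1, and loss of this signal disturbs the layering of the cortex. The other loci also serve migration. Rnd2 is an atypical small GTPase and a known target of Neurog2 in radial migration, Cxcr4 is the receptor of the chemokine Cxcl12, and Unc5d is a netrin receptor found in multipolar cells of the subventricular zone. Tbr2 marks intermediate progenitors of the excitatory lineage, and Neurog2 is a proneural factor of the same lineage.

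The DNA sequence of the peaks themselves was not used here, because no mm9 sequence was at hand. Promoter sequences came from the RefSeq table for GRCm38.p6, where 4 of the 6 members matched by symbol (Reln, Lrp8, Dab1 and Cxcr4), with 7 start sites in all. Those of Lrp8 and Dab1 are shown because these loci had the most and the fewest Neurog2 peaks. Each is the 250 bases before a start, 5′ to 3′ on the gene's strand, and start sites are numbered along the gene. Capitals mark the E-box CANNTG, the general site of basic helix-loop-helix factors. The T-box core GGTGTG, or CACACC on the other strand, was also searched and had no match in the 7 sequences. The E-box form CAGGTG shares 4 bases with GGTGTG when they overlap. Since the builds differ, these sequences were not placed relative to any peak.
Lrp8 start 1: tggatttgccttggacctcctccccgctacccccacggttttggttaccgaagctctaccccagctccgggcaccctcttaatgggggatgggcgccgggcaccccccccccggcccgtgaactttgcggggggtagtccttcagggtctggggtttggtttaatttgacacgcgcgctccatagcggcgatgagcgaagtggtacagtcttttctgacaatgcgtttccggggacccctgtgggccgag
Lrp8 start 2: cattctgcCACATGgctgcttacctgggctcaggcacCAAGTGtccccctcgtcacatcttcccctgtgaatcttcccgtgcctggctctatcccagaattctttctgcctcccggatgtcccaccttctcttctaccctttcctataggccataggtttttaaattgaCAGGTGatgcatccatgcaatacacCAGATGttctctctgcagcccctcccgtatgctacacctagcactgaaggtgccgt
Lrp8 start 3: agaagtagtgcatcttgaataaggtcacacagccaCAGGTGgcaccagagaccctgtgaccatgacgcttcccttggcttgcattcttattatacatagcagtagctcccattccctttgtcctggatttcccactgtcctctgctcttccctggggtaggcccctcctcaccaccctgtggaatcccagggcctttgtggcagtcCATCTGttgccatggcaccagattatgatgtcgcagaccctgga
Dab1 start 1: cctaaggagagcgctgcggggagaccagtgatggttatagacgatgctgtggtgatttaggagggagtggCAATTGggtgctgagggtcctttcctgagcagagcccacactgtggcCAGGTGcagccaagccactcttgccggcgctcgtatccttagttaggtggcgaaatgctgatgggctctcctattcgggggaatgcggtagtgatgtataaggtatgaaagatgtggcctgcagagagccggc
Dab1 start 2: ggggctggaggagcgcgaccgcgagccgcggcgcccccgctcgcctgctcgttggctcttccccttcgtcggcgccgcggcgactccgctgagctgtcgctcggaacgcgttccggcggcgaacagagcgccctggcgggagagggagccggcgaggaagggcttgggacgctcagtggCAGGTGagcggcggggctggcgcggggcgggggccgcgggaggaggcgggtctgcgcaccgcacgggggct

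An E-box was present in 5 of the 7 member promoters, beside 66.2% of all 32851 promoters of this length. Start 2 of Lrp8 held 4, start 3 held 2 and start 1 held none, while the Dab1 promoters held 2 and 1. The form CAGATG, or CATCTG on the other strand, to which proneural factors are known to bind, was found in 2 of the 7, at starts 2 and 3 of Lrp8, and in 14.4% of all promoters. Among other genes of Reelin signalling, 12 of 15 listed genes matched (for example Vldlr and Fyn), and 6 of their 15 promoters held an E-box, none of them as CAGATG or CATCTG. Among other migration genes 11 of 13 matched (for example Rnd3 and Cxcl12), and 8 of their 14 promoters held an E-box, 2 of them in that form. GGTGTG or CACACC was found in 1 and 2 promoters of these lists and in 16.3% of all. The longer T-box forms AGGTGTG and AGGTGTGA, on either strand, had no match in either list or in the members, and 5.10% and 1.12% of all promoters held them. The form CAGCTG was absent from the member promoters, present in 3 and 1 promoters of the lists, and present in 13% of all. A match of letters describes the sequence only.

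Tbr2 peaks were denser than the autosomal average in all 6 windows, and Neurog2 peaks in 5 of them. The windows held 12.9 Tbr2 peaks per Mb, 2.15 times the 6.00 per Mb of the autosomes, and 3.01 Neurog2 peaks per Mb, 2.80 times the autosomal 1.08. Without Lrp8 the Neurog2 ratio was 1.93. Each window was also set beside all consecutive autosomal windows of its own length, between 1787 windows at the length of Dab1 and 8519 at that of Lrp8. These windows include sequence far from any gene, and gene density, mappability and assembly gaps were not matched.

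The highest density in the full lists was at Lrp8, with 21.4 Tbr2 and 14.3 Neurog2 peaks per Mb. As many Tbr2 peaks as its 6, or more, were in 5.85% of windows of that length, and as many Neurog2 peaks as its 4 in 0.88%. The shares below are of the same kind. Dab1 had the most Tbr2 peaks of the full list, 17 or 12.8 per Mb, a number reached by 8.62% of windows, and no Neurog2 peak. The median window of that length held 1 Neurog2 peak, and 40.7% of them held none. Unc5d had 10 Tbr2 peaks (13 per Mb, reached by 11.1% of windows) and 2 Neurog2 peaks (19%). Reln had 8 Tbr2 peaks (12.1 per Mb, 14.8%) and 2 Neurog2 peaks (16.3%). Rnd2, with 3 Tbr2 peaks, stood closer to the middle for this factor (26.9%) than for Neurog2, of which it had 2 peaks (6.43%). Cxcr4 had 3 Tbr2 peaks (28%) and 1 Neurog2 peak (21.9%). With the Tbr2 list limited to its 2640 highest-scoring peaks, the length of the Neurog2 list, 5 Tbr2 peaks were left at Reln, 3 at Rnd2, 2 each at Lrp8, Dab1 and Unc5d and 0 at Cxcr4. Reln then had the most Tbr2 peaks and Rnd2 the highest density. When both lists were limited to peaks with a score of at least 100, where the score is 10 times the negative log10 of the authors' p-value, the share of windows reaching the Tbr2 count was 17.2% for Dab1, 1.31% for Lrp8 and 12.4% for Rnd2. The share reaching the Neurog2 count was then 0.352% for Lrp8, 3.06% for Rnd2, 26.4% for Reln and 29.9% for Unc5d, and Cxcr4 had no Neurog2 peak left. Among windows with at least 1 Tbr2 peak, the share for Tbr2 was 9.13% for Lrp8, 40.6% for Rnd2 and 42% for Cxcr4, and that for Neurog2 was 1.37% for Lrp8. The counts of both factors are linked, as 81.3% of all Neurog2 peaks overlapped a Tbr2 peak. Among windows with at least as many Tbr2 peaks as the locus, the share reaching its Neurog2 count was higher. It was 11.6% for Lrp8, 20.2% for Rnd2, 49.1% for Cxcr4, 53.6% for Reln and 66.7% for Unc5d.

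**Figure D1:**
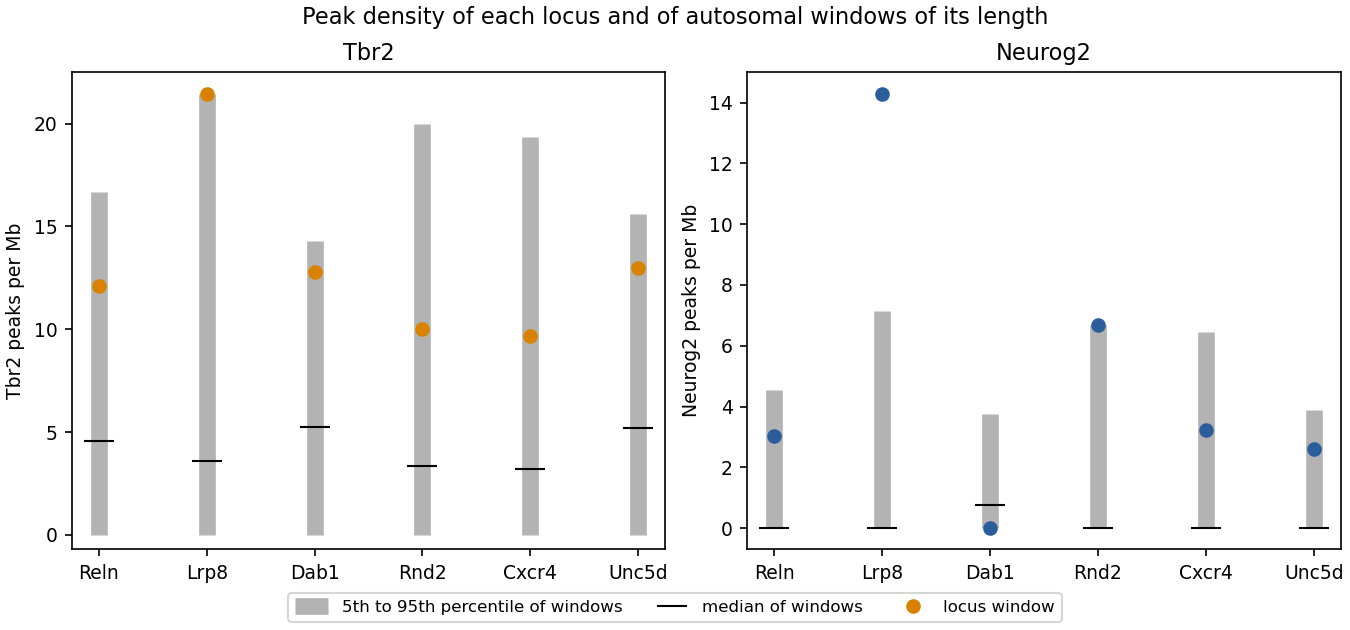
Peaks per Mb in each locus window (dots) for Tbr2 (left) and Neurog2 (right), with the median (black line) and the 5th to 95th percentile (grey bar) of all autosomal windows of the same length. For Tbr2 all 6 dots lie above the median line, and for Neurog2 the Lrp8 dot, at 14.3 per Mb, lies far above its bar while Dab1 lies at 0.

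All 11 Neurog2 peaks lay on a Tbr2 peak (overlap of at least 1 bp). Over the whole Neurog2 list 81.3% did, and the 95% Wilson interval of 11 of 11 is 74.1 to 100%, so the listed share lies within it. Each of the 11 lay wholly inside its Tbr2 peak, as the Neurog2 peak did in 98.1% of all 2146 overlapping pairs of the lists. Seen from Tbr2, 11 of 47 peaks were shared, 23.4% (13.6 to 37.2), beside 14% of the whole Tbr2 list. The intervals cover counting error over peaks only. The shared fraction varied among loci: 4 of 6 at Lrp8, 2 of 3 at Rnd2, 1 of 3 at Cxcr4, 2 of 8 at Reln, 2 of 10 at Unc5d and 0 of 17 at Dab1. Without Dab1, the locus with no shared peak, the fraction was 36.7% (21.9 to 54.5), and without Lrp8 17.1% (8.53 to 31.3). Leaving out any other locus gave 20.5 to 24.3%. The interval over all loci includes the 14% of the whole list, and only the interval without Dab1 does not. That subset leaves out the locus with no shared peak, so nothing is concluded from it. The intervals treat peaks as independent, although 3 shared ones lay within 6.95 kb at Lrp8. The 14% is not matched for peak strength.

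Strong Tbr2 peaks were shared more often than weak ones in the list as a whole, so strength was set beside these counts. Strength is given by the score. The whole Tbr2 list was cut into 10 bands of equal size by score. Had each peak of the loci been shared at the rate of its band, 8.59 of the 47 would have been shared, against 11 counted. The numbers were 1.54 against 4 at Lrp8, 0.947 against 2 at Rnd2, 0.343 against 1 at Cxcr4, 2.12 against 2 at Reln, 1.55 against 2 at Unc5d and 2.09 against 0 at Dab1. The bands are coarse at the top. The strongest band was shared at 43.3%, but the 16 peaks at least as strong as the strongest Reln peak at 81.3%. The band rate is thus too low for the strongest peaks, among them those of Reln, Rnd2 and Unc5d. It is then too high for the weakest peaks of the same band. The 2 Dab1 peaks in that band ranked 1180th and 1408th, so the 2.09 at Dab1 may be too high. The shared Tbr2 peaks of the loci had a median of 104 tags (sequence reads counted in the peak by the authors) and a median fold change of 18.8 over background. The 36 unshared ones had medians of 39 tags and 9.89. In the whole list these medians were 71 tags and 13.6 for shared peaks, and 36 tags and 9.31 for unshared ones.

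**Figure D2:**
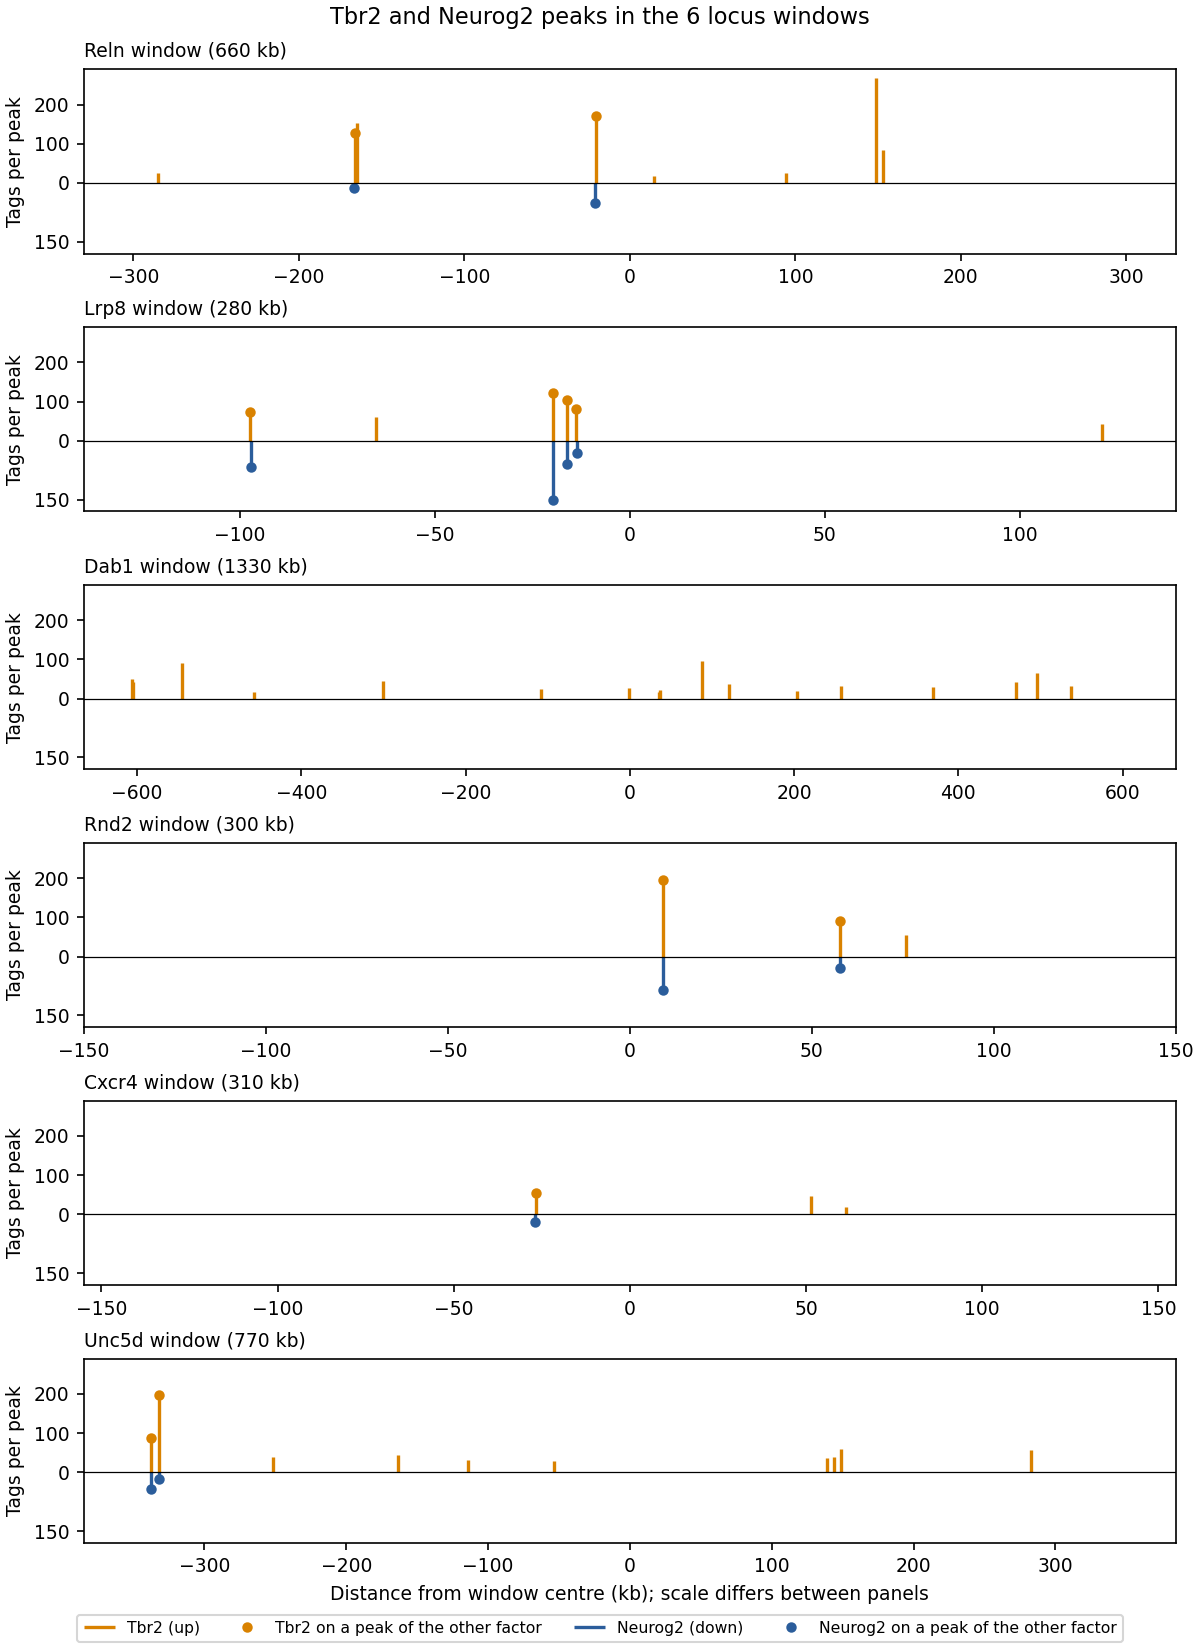
Peaks in each window by distance from the window centre (kb, scale differs between panels), with line height as tags per peak, Tbr2 upward and Neurog2 downward; dots mark peaks that overlap a peak of the other factor. Each of the 11 Neurog2 lines stands opposite a Tbr2 line, the Dab1 panel has none, and the tallest Tbr2 line, 267 tags at Reln, has no Neurog2 line opposite.

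At Reln, the ligand gene, the window chr5:21290000-21950000 held the strongest Tbr2 peak of all 6 loci, and Neurog2 was not listed there. That peak, at chr5:21767982-21768934, had 267 tags and a fold change of 89.8. It ranked 16th of the Tbr2 list by score and 4th by fold change, and no Tbr2 peak without a Neurog2 peak had a higher fold change. Of the 16 Tbr2 peaks at least as strong by score, 13 overlapped a Neurog2 peak. The nearest Neurog2 midpoint lay 169 kb away. A weaker Tbr2 peak, with 83 tags and a fold change of 13.7, lay 4.39 kb from it, at chr5:21772339-21773352.

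The second Tbr2 peak of Reln by score, at chr5:21598743-21600590, had 171 tags and a fold change of 27.5. It was the widest of the loci, at 1848 bp, and held the stronger Neurog2 peak of the window, at chr5:21598981-21599330, with 52 tags and a fold change of 25.04. The Neurog2 midpoint lay 511 bp to the left of the Tbr2 midpoint, the largest offset among the 11 pairs. This Neurog2 peak ranked 54th of its list by fold change and 195th by score. The next pair of Tbr2 peaks, at chr5:21453121-21454254 and chr5:21454258-21455837, were 3 bp apart, with 127 and 153 tags and the same fold change of 20.3. The list holds them as separate peaks. The left one held a Neurog2 peak at chr5:21453420-21453565 with 14 tags and a fold change of 11.1, which ranked 2631st of 2640 by score. The other 3 Tbr2 peaks of the window had 18 to 25 tags and ranked 12403rd to 13821st.

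At Lrp8, which encodes a Reelin receptor, the window chr4:107370000-107650000 held 3 Tbr2 peaks within 6.95 kb, each with a Neurog2 peak inside it. The first, at chr4:107489710-107490796, had 123 Tbr2 tags and a fold change of 18.8. The Neurog2 peak within it, at chr4:107489918-107490620, had 152 tags and a fold change of 21.3, and ranked 7th of the Neurog2 list by score and 9th by tags. Its ratio of 1.24 Neurog2 tags per Tbr2 tag was the highest of the 11 sites and was reached by 6.29% of the 2146 overlapping pairs of the lists. The Tbr2 peak there ranked 1171st, so the site stood higher in the Neurog2 list than in the Tbr2 list.

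The middle site of this group had 104 Tbr2 tags (fold change 15.2) at chr4:107493378-107494389 and 60 Neurog2 tags (fold change 8.56) at chr4:107493624-107494193. The last had 81 Tbr2 tags (fold change 10.7) at chr4:107495601-107496662 and 32 Neurog2 tags (fold change 10.4) at chr4:107496229-107496492. Tags of both factors were thus lower at each successive site from left to right. The fourth shared site lay 77.5 kb to the left of the first by Neurog2 midpoints, with 73 Tbr2 tags (fold change 16.1) at chr4:107412279-107413199 and 67 Neurog2 tags (fold change 12.03) at chr4:107412517-107412996. At 3 of the 4 sites the midpoints of the factors were 16 to 25 bp apart, and at the last of the group 229 bp. The 2 unshared Tbr2 peaks had fewer tags, 62 and 44, than any of the 4 shared ones. All 6 Tbr2 peaks scored above the median of the Tbr2 list.

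At Dab1, the intracellular adaptor, the window chr4:103190000-104520000 held 17 Tbr2 peaks and no Neurog2 peak. Tags ranged from 16 to 96 with a median of 33, below the list median of 38, and 7 of the 17 scored above the list median. The strongest by score was at chr4:103308840-103309606, with 90 tags and a fold change of 24.4. The next was at chr4:103941969-103943285, with 96 tags and a fold change of 12.3, and the third at chr4:104350615-104351572, with 65 tags and a fold change of 11.9. The first 2, and no others of the 17, were in the strongest 10% of the list. Peaks were spread along the window, with a median gap of 56.1 kb, and 2 of the 16 gaps were shorter than 12.5 kb, as were 20.5% of all gaps in the Tbr2 list.

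The nearest Neurog2 midpoint was 251 to 900 kb from the Dab1 peaks. The window lay inside a stretch of 1844 kb between successive Neurog2 peaks (chr4:102998061 to chr4:104842551) that held 20 Tbr2 peaks. Of the 2552 such stretches on the autosomes 4.23% held as many Tbr2 peaks or more, and the median stretch held 3. A stretch at least as long as this one was less unusual, at 14.8%. A window without a Neurog2 peak can lie only in a stretch at least as long as the window. The stretches counted were of any length, so the 4.23% is not a comparison with stretches of like length. Of the 154 tiled windows of the Dab1 length with at least 17 Tbr2 peaks, 6 (3.90%) had no Neurog2 peak, and the median of these windows was 4, whereas 40.7% of all windows of that length had none. These counts were chosen after the absence of Neurog2 peaks was seen. The windows were not matched for the strength of their Tbr2 peaks, and stronger peaks were shared more often. The median score was 88.8 for the Dab1 peaks, against 110 in the Tbr2 list. The Wilson interval of 0 of 17 reaches 18.4%, which includes the 14% of the whole list.

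At Rnd2, the small GTPase, the window chr11:101180000-101480000 held 3 Tbr2 peaks, all above the list median by score. The strongest, at chr11:101338626-101339753, had 194 tags and a fold change of 32.9 and ranked 167th of the Tbr2 list. The Neurog2 peak inside it, at chr11:101338858-101339374, had 85 tags and a fold change of 12.95 and ranked 109th of the Neurog2 list. The site was in the strongest 1.15% of the Tbr2 list and the strongest 4.13% of the Neurog2 list. A second shared site lay 48.4 kb to the right, with 90 Tbr2 tags (fold change 16.4) at chr11:101387070-101388152 and 29 Neurog2 tags (fold change 12.5) at chr11:101387557-101387849. The third Tbr2 peak, at chr11:101405445-101406032, was unshared, with 55 tags and a fold change of 20.7, and the nearest Neurog2 midpoint lay 18.04 kb away. Both factors thus had more tags at the left shared site than at the right one.

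At Cxcr4, the chemokine receptor, the window chr1:130330000-130640000 held the lowest maximum of Tbr2 tags, 55. Its shared site had 55 Tbr2 tags (fold change 8.14) at chr1:130457789-130458727 and 19 Neurog2 tags (fold change 9.37) at chr1:130457996-130458147. It stood in the strongest 39.5% of the Tbr2 list, and the Neurog2 peak ranked 2205th of 2640. The strongest Tbr2 peak by score was unshared, at chr1:130536126-130536679, with 47 tags and a fold change of 14.4. The third, at chr1:130545988-130546493, had 19 tags and a fold change of 6.73. No peak of this window was in the strongest 10% of either list, and its Neurog2 peak did not reach a score of 100.

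At Unc5d, the netrin receptor, the window chr8:29660000-30430000 held a strong pair of Tbr2 peaks near its left edge and 8 weaker ones along the rest. The strongest, at chr8:29711995-29713470, had 198 tags and a fold change of 49.4 and ranked 150th of the Tbr2 list. The Neurog2 peak inside it, at chr8:29712887-29713061, was weak by tags, with 17, but had a fold change of 16.7. Its ratio of 0.0859 Neurog2 tags per Tbr2 tag was reached or passed by 99.3% of the overlapping pairs of the lists. The neighbouring Tbr2 peak, at chr8:29707180-29707888, had 87 tags and a fold change of 19.2, and its Neurog2 peak, at chr8:29707322-29707649, had 42 tags and a fold change of 9.25. Within 6.29 kb, therefore, the site with more Tbr2 tags was the one with fewer Neurog2 tags. The remaining 8 Tbr2 peaks had 29 to 60 tags and none was shared. Of these, 3 lay within 10.2 kb at chr8:30183929-30194108, and the strongest, at chr8:30193197-30194108, had 60 tags and a fold change of 16.8.

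**Figure D3:**
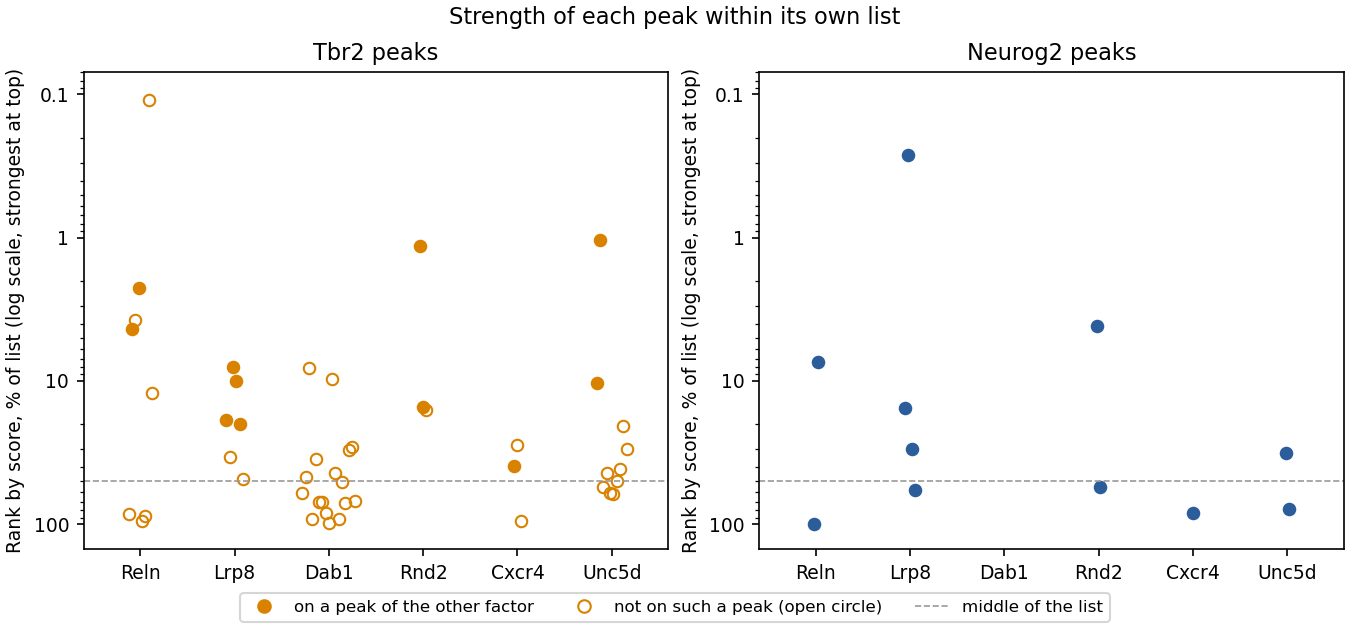
Rank of every peak of the 6 loci in its own list by score, as a percent of the list (log scale, strongest at the top), for Tbr2 (left) and Neurog2 (right); filled circles overlap a peak of the other factor and open circles do not. At Lrp8, Rnd2 and Unc5d the filled Tbr2 circles lie above all open ones, at Reln the top circle is open, and at Dab1 all 17 are open.

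The strongest Tbr2 peak by score was shared at Lrp8, Rnd2 and Unc5d and unshared at Reln, Dab1 and Cxcr4. In the whole list the share among peaks at least as strong was 45.9% for the Lrp8 peak, 64.7% for Rnd2 and 63.3% for Unc5d. For the unshared leaders it was 81.3% at Reln, 45.8% at Dab1 and 29.9% at Cxcr4. Of the 47 Tbr2 peaks, 10 (21.3%) were in the strongest 10% of their list, of which 4 were at Reln, 2 each at Lrp8 and Dab1, and 1 each at Rnd2 and Unc5d. The 4 at Reln include both peaks of the pair 3 bp apart. Without Reln, 6 of 39 Tbr2 peaks (15.4%) were in the strongest 10%. Of the 11 Neurog2 peaks, 3 were in the strongest 10% of theirs, 1 each at Reln, Lrp8 and Rnd2. The median of the 47 was 45 tags against 38 in the list, and that of the 11 was 42 against 30. Without Lrp8 the Neurog2 median was 29, below that of the list.

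Across the 11 shared sites the order by Tbr2 tags was not that by Neurog2 tags. The Spearman rank correlation of the tags was 0.018 there, and over all 2146 pairs it was also limited, at 0.323. The most Tbr2 tags, 198 at Unc5d, met 17 Neurog2 tags, and the most Neurog2 tags, 152 at Lrp8, met 123 Tbr2 tags. Midpoints were a median of 92 bp apart, from 16 to 511 bp, against a median of 75.5 bp over all 2146 pairs. The median ratio of Neurog2 to Tbr2 tags was 0.395, against 0.459 over all pairs. Library depth is unknown, so these ratios can be compared among pairs only and not with 1.

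**Figure D4:**
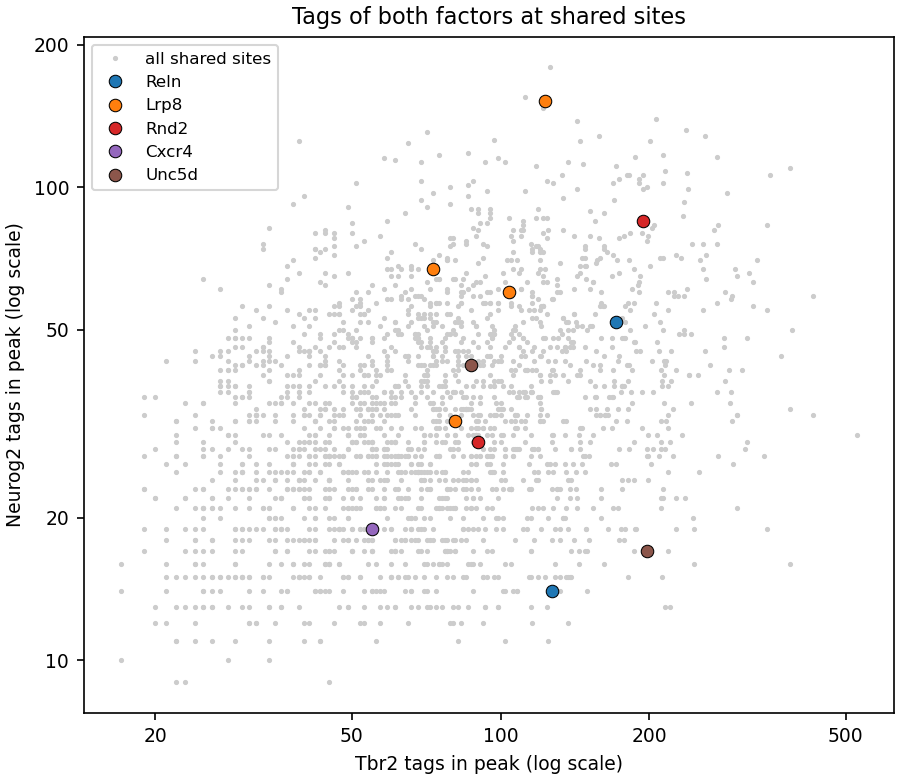
Tbr2 tags (horizontal, log scale) and Neurog2 tags (vertical, log scale) at the 11 shared sites of the loci (coloured) and at all 2146 overlapping pairs (grey). The Lrp8 site with 123 and 152 tags lies at the upper edge of the grey points, and the weak Neurog2 peaks of Reln (14 tags) and Unc5d (17 tags) lie at the lower right.

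Narrowing each window by 25 kb on both sides removed 1 of the 47 Tbr2 peaks and no Neurog2 peak. The Tbr2 peak closest to an edge from inside was at Lrp8, 18.9 kb from it, with 44 tags and a fold change of 6.65. The closest from outside was beyond the Cxcr4 window, by 15.6 kb, at chr1:130654985-130656288, with 94 tags and a fold change of 9.33, more tags than any Tbr2 peak inside that window. Beyond the left edge of the Unc5d window a shared site lay 45.7 kb away, with 160 Tbr2 tags (fold change 23.9) and 48 Neurog2 tags (fold change 8.05). The windows hold other genes too, and by RefSeq order Lrp8 lies between Dmrtb1 and Magoh. No mm9 annotation was used here, so whether a peak is at a start site, in an intron or between genes is not given, and a peak in a window is not shown to belong to the gene that names it.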

How the data were processed

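Peak lists of 1 Tbr2 and 1 Neurog2 ChIP-seq library were used. Fixation was by 2 mM disuccinimidyl glutarate (45 min) and 1% formaldehyde (10 min), per the labels' protocols. The submitters' processing notes name Bowtie 0.12.3, MACS 1.4 and mm9. Settings, control and duplicate handling were not given in the sources used here. GeneProf exported the tracks, per the file headers. Fold change, tags, p-value and FDR of each peak are the authors' deposited values. The deposited score column is 750 for every peak and was not used. The lists end at p-values of 9.98e-06 (Tbr2) and 8.65e-07 (Neurog2). By the deposited FDR the order is reversed, with a highest value of 0.0233 for Tbr2 and 0.1 for Neurog2. Among the Neurog2 peaks of the loci the FDR ranged from 0.0047 to 0.0974. It was 0.0667 for the Lrp8 peak with 152 tags. Total reads are unknown, so depth sets an unknown limit on weak peaks.

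Here peaks were assigned to windows by midpoint, counted from 1, and overlapped by at least 1 bp (bedtools 2.31.1). Scores were computed from the p-values. In place of random windows, all consecutive autosomal windows of each length were counted, from the first to the last peak of a chromosome. No p-values were computed. The code that overlaps and counts peaks was checked on simulated lists, which gave no value of the report. Shares have 95% Wilson intervals. Every Neurog2 peak and the 3 highest-scoring Tbr2 peaks per locus were to be named, and any other peak was named after its values were seen. The members and lists were chosen with earlier results of these data known. Comparisons by band of score, of windows rich in Tbr2 peaks and of Neurog2-free stretches were added after seeing the data. Alternatives changed the window rule, score limit, list length, tiling, overlap rule and tag measure.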

Additional observations from a re-analysis of the deposited data

How the results depend on the processing

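The totals were 47 Tbr2 and 11 Neurog2 peaks with peaks assigned by touch in place of midpoint, and 46 and 11 with windows narrowed by 25 kb on each side. At a score of at least 100 the Tbr2 total was 31, and with the Tbr2 list limited to the length of the Neurog2 list it was 14, since fewer peaks were then listed. That shorter list gave shared shares of 57.1% for Tbr2 and 72.7% for Neurog2 in the loci, against 35.6% and 38.4% of the lists. With midpoints within 200 bp in place of overlap, 72.7% of the Neurog2 peaks were shared (3 of 11 pairs lie farther apart), against 67.5% of the list. The number of loci whose count was reached by at most 10% of windows was 2 for each factor under all 4 alternatives, but at a score of at least 100 the Tbr2 pair was Lrp8 and Unc5d (7.57%) in place of Lrp8 and Dab1. Leaving out each locus in turn, median Tbr2 tags were 1.13 to 1.55 times the list median, and median Neurog2 tags 0.967 to 1.73 times, the lowest without Lrp8. Of 90 values of single loci under an alternative, 39 moved beyond their counting interval or by over 1.5 times. No paired analysis was possible because each factor has 1 library. Depth is unknown, so a site absent from a list may lie below its limit.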
